A study of Mus musculus with 16 samples.

Results

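The genes described here are 38 genes of the interferon response and of antigen presentation by class I molecules of the major histocompatibility complex (MHC), measured by RNA sequencing in mouse neural stem and progenitor cells with and without the histone acetyltransferase KAT7 (HBO1). They are a list of named interferon-stimulated and class I genes. All 38 were found by symbol among the 27179 genes of the count files. The rule is the list of names, with no threshold on a measured value. The list was chosen with earlier results of these data known. A count above the share of all genes may therefore not be independent of that choice. The starting tissue was cortex and ganglionic eminence of E14.5 foetuses, and the cells were grown as neurospheres, floating clusters of dividing progenitors. Null cells carried Kat7 lox/lox with NesCre T/+ and intact cells Kat7 +/+ with NesCre T/+, so the Cre transgene, named for the neural progenitor gene Nestin, was present in both genotypes. There were 4 groups of 4 libraries, each from the isolate of 1 foetus: null proliferating, intact proliferating, null differentiating and intact differentiating. Proliferating cells had been kept for 3 passages and 3 days at 20000 cells per square centimetre, and differentiating cells were dissociated after passage 3 and held for 3 days on laminin in a cortical neuron medium. Whether the same foetuses gave the proliferating and the differentiating libraries is not stated.

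Interferons are secreted proteins that bind surface receptors and, through Janus kinases, activate transcription factors of the STAT family. A complex that holds STAT2 and IRF9 binds the interferon-stimulated response element, and other factors act at gamma-activated sites. The genes switched on in this way encode sensors of foreign nucleic acid, antiviral effector proteins, chemokines and the machinery that cuts peptides in the proteasome, carries them into the endoplasmic reticulum and loads them on class I molecules for display at the cell surface. Many cells keep a low level of these genes without any infection, and class I genes are known to be low in neurons.

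Promoter stretches are shown for those genes called between genotypes that carry the letters of these elements upstream of the start. RefSeq windows of GRCm38.p6 (250 bases before to 50 after a transcription start) were at hand for 29 of the 38 genes. The core of the response element, searched as GAAANNGAA and on the other strand as TTCNNTTTC, was in the windows of 15 of the 29 genes (51.7%) and of 9.76% of 27025 genes in all. The gamma-activated site, searched as TTCNNNGAA, which reads alike on both strands, was in those of 7 of the 29 genes (24.1%) and of 9.55% of all genes. With 1 more A at the 3′ end of the core, 14 of the 29 genes (48.3%) and 3.99% of all genes matched. Of the 20 genes called in either comparison of genotypes, 10 had a match upstream of the start and are printed as stretches of 80 bases in the direction of the gene, with the matching letters in capitals. The stretches of Ifih1 (chr2:62646313-62646392), Rsad2 (chr12:26456517-26456596) and Cxcl10 (chr5:92349048-92349127) lie on the minus strand. The others lie on the plus strand: Irf1 (chr11:53769899-53769978), Trim25 (chr11:88999323-88999402), Ifit2 (chr19:34550444-34550523), Gbp2 (chr3:142620580-142620659), Gbp3 (chr3:142559936-142560015), Psmb8 (chr17:34198073-34198152) and B2m (chr2:122147523-122147602). Capitals mark the response element core, except in Irf1, Ifit2 and Psmb8, where they mark the gamma-activated site, and in Gbp3 they cover 2 cores that overlap.
Ifih1: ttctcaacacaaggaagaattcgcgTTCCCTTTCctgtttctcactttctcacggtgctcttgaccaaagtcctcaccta
Irf1: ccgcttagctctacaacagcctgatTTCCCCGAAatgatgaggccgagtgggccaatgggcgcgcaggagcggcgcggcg
Trim25: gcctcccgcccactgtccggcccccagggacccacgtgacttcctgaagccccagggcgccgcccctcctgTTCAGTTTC
Ifit2: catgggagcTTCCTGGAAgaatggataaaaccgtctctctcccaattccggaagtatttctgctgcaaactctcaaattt
Rsad2: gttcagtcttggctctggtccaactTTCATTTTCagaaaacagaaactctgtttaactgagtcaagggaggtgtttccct
Gbp2: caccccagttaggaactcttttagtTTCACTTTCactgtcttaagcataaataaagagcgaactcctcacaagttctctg
Gbp3: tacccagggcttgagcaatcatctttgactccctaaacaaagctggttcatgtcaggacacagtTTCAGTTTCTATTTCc
Cxcl10: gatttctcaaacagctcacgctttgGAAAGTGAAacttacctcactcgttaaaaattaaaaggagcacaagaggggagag
Psmb8: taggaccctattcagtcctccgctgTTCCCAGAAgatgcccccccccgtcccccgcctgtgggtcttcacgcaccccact
B2m: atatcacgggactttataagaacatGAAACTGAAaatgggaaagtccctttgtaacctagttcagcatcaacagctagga

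The closest of the printed matches to its start was that of Trim25, whose core ended at the last base before the start. Cxcl10 and B2m held the core on the printed strand and the other 5 held it on the opposite strand. No match to either motif was found in the windows of H2-K1, H2-D1, Tap1, Psmb9, Oasl2, Dtx3l, Cmpk2, Irf9, Irf7 and Xaf1. A match is a run of letters and does not show that a factor binds there, and a window without one says only that these letters are not in it.

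**Figure D1:**
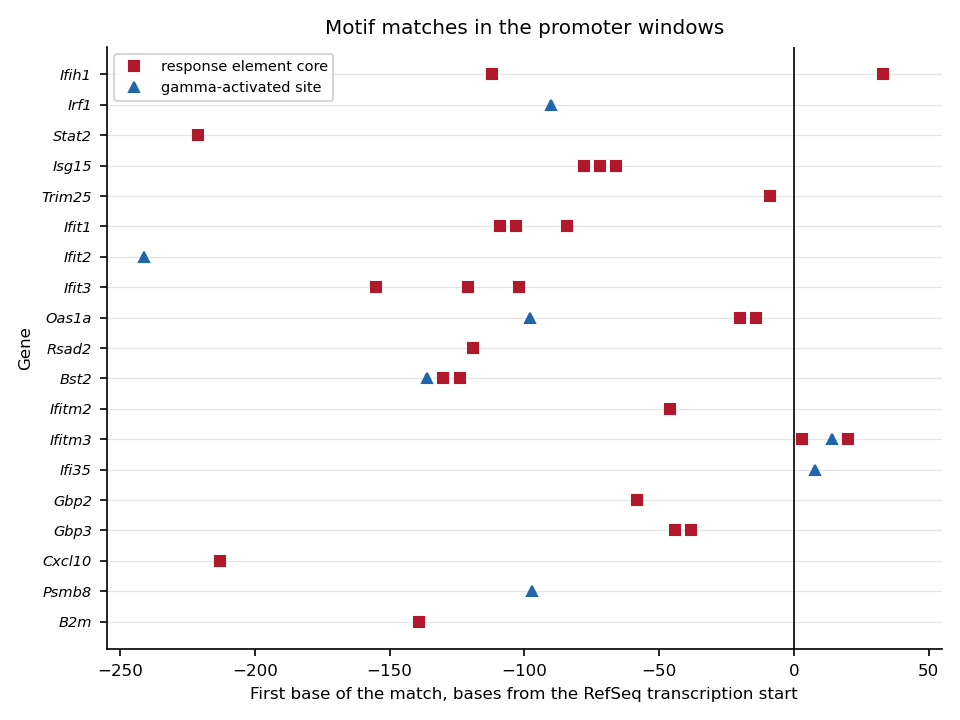
Position of the first base of each motif match (x axis, bases from the RefSeq transcription start) in the promoter windows of the genes with a match (y axis). Squares are the response element core and triangles the gamma-activated site, and most matches lie upstream of the start, drawn as a vertical line.

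Library totals were 16.8 to 47.9 M counts. Kat7 itself had 8 counts over the 4 null proliferating libraries against a mean of 140 ± 2.21 CPM (SD, n = 4; CPM is the count of a gene in each M counts of its library) in intact proliferating cells, and 1 count over the 4 null differentiating libraries against 109 ± 2 CPM in intact differentiating cells. The labelled cell type was checked by 8 markers of neural stem and progenitor cells, all at 1 CPM or more in every group, which summed to 6430 to 6920 CPM in null proliferating, 6840 to 7140 CPM in intact proliferating, 4270 to 5220 CPM in null differentiating and 2790 to 3920 CPM in intact differentiating libraries. The 14 markers of microglia and macrophages summed to 2.5 to 3.59 CPM in null and 1.44 to 2.45 CPM in intact proliferating libraries, without overlap. In differentiating libraries they summed to 2.54 to 2.94 CPM in null and 2.23 to 3.1 CPM in intact cells. In each group 13 of these 14 markers were under 1 CPM, 5 to 7 had no count at all, C1qa and C1qc had none in any group, and the gene at 1 CPM or more was Cd68, a lysosomal protein that other cells also make. Endothelial markers summed to 0.757 to 5.16 CPM.

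Few of the 38 genes were abundant. By group mean, 9 reached 10 CPM in null proliferating, 7 in intact proliferating, 7 in null differentiating and 5 in intact differentiating cells, while 18, 14, 20 and 20 genes were under 1 CPM in the same groups. The median gene was at 1.39, 2.37, 0.877 and 0.836 CPM in that order. The 3 genes at 10 CPM or more in every group were Stat2, whose protein joins IRF9 in the interferon-activated complex, B2m, the light chain shared by all class I molecules, and H2-D1, a class I heavy chain. Another 12 were under 1 CPM in every group: Irf7, Usp18, Isg15, Ifit1, Ifit3, Oasl2, Oas1a, Mx1, Xaf1, Ifi35, Psmb8 and Psmb9, among them genes that respond most sharply to interferon in other settings. Those 12 summed to 1.40 to 3.59 CPM in null proliferating, 3.12 to 5.09 CPM in intact proliferating, 1.19 to 2.17 CPM in null differentiating and 1.38 to 3.04 CPM in intact differentiating libraries.

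Per kb of gene model, B2m led in every group, at 106, 93.4, 90.7 and 35.2 CPM per kb in null proliferating, intact proliferating, null differentiating and intact differentiating cells. In proliferating cells the class I heavy chain H2-K1 came next, at 28.1 CPM per kb in null and 28.8 in intact cells, followed by Ifitm3 (21.4 and 11.2) and Ifitm2 (18.5 and 27.7), which encode membrane proteins that restrict the entry of viruses. In null differentiating cells the second place was taken by Gbp2, a guanylate-binding protein that acts against intracellular pathogens, at 14.0 CPM per kb, whereas H2-K1 (8.93 CPM per kb), H2-D1 (8.55) and Stat2 (8.4) followed B2m in intact differentiating cells. Oas1a, an oligoadenylate synthetase, had no count in null proliferating or null differentiating cells and 1 count in each intact group. A count of 0 over a group allows up to 0.0273 CPM in null proliferating and 0.0208 CPM in null differentiating cells, counting error only.

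**Figure D2:**
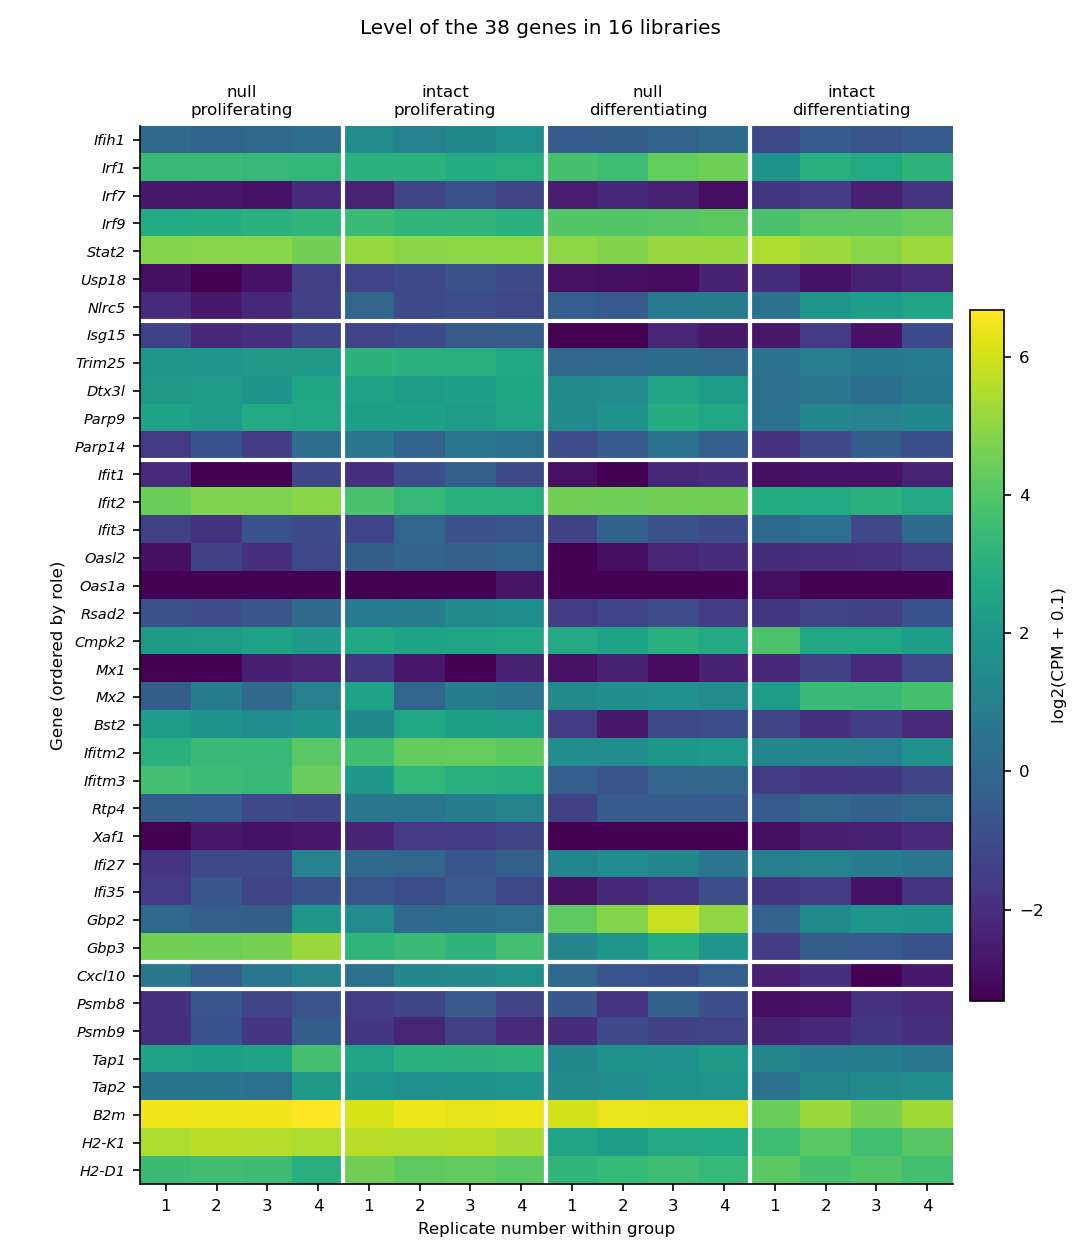
Level of each of the 38 genes (rows, ordered by role) in each of the 16 libraries (columns, numbered within group) as log2(CPM + 0.1), from dark (low) to yellow (high). B2m is the brightest row, the 12 genes under 1 CPM stay dark throughout, and Gbp2 is bright in the null differentiating libraries.

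In proliferating cells, the loss of KAT7 went with changes in both directions. Of the 31 genes abundant enough to be tested, 3 were called higher in null cells (Ifit2, Ifitm3 and Gbp3) and 6 lower (Ifih1, Trim25, Oasl2, Rsad2, Rtp4 and H2-D1), by edgeR's quasi-likelihood test with adjusted p under 0.05 over 15177 genes. Among all genes tested, 19% were called higher and 19.7% lower, and neither count of the 31 is above its share. With library size scaling in place of trimmed means, 36.7% of all calls were higher in place of 49.1%, while the calls among the 31 genes were 3 and 6 again. The median log2 fold change was -0.31 over the 31 genes and -0.01 over all genes. In bulk samples such as these, fewer cells of a type and less RNA per cell cannot be told apart.

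Among sensors and signalling genes, Ifih1 encodes MDA5, a sensor of double-stranded RNA in the cytosol. It had 1.01, 0.834, 0.913 and 1.11 CPM in the null proliferating libraries, against 2.71, 2.03, 2.45 and 3.27 CPM in the intact proliferating libraries. Every null library was below every intact one, and the log2 fold change was -1.35 ± 0.23 (SE, edgeR adjusted p = 0.000383). Of the other tested genes in this role, Irf1 (10.5 ± 0.689 CPM over the null and 7.94 ± 0.525 CPM over the intact proliferating libraries), Irf9 and Stat2 were not called. Nlrc5, the activator of class I genes, had 0.151 ± 0.102 CPM over the null and 0.501 ± 0.246 CPM over the intact proliferating libraries (log2 fold change -1.48 ± 0.63, edgeR adjusted p = 0.0709). Irf7 and Usp18, a brake on the interferon receptor, were too low to test, with 9 and 12 counts over the null proliferating libraries and 25 and 32 over the intact ones.

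Trim25 encodes a ubiquitin ligase that acts on the RNA sensor RIG-I. Its levels were 3.87, 3.75, 4.01 and 4.04 CPM in the null proliferating libraries, against 8.73, 8.13, 7.63 and 6.33 CPM in the intact ones. The groups did not overlap (log2 fold change -0.89 ± 0.14, edgeR adjusted p = 0.000139). Isg15, the ubiquitin-like modifier itself, had 27 counts in null and 41 in intact proliferating cells and was not called, nor were Dtx3l, Parp9 and Parp14, whose proteins join ubiquitin or ADP-ribose to others.

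The effectors split. Ifit2, which belongs to a family of proteins that bind foreign RNA and curb translation, had 21.4, 26.8, 26.6 and 30.1 CPM in the null proliferating libraries, against 13.8, 10.1, 8.36 and 8.19 CPM in the intact ones. It was higher in every null library than in any intact one, with the lowest adjusted p among the 31 genes (log2 fold change 1.46 ± 0.14, edgeR adjusted p = 2.4e-06). Its neighbours on chromosome 19 did not move with it: Ifit3 was at 0.338 ± 0.130 CPM over the null and 0.537 ± 0.232 CPM over the intact proliferating libraries and was not called, and Ifit1 had 16 counts in null and 36 in intact cells. Ifit2 made up 97.6 to 99.3% of the counts of these 3 genes in null and 87.6 to 96.8% in intact proliferating libraries.

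Gbp3, another guanylate-binding protein, had 23.7, 22, 24.6 and 36.0 CPM in the null proliferating libraries, against 9.24, 11.2, 9.04 and 12.8 CPM in the intact ones. No library of either group reached into the other (log2 fold change 1.40 ± 0.29, edgeR adjusted p = 0.00141). Ifitm3 had 12.7, 11.6, 10.9 and 20.3 CPM in the null proliferating libraries, against 3.93, 9.68, 7.95 and 7.39 CPM in the intact ones. All null libraries were above all intact ones here too (1.01 ± 0.27, edgeR adjusted p = 0.00791).

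Rsad2, which encodes the antiviral enzyme viperin, ran the other way, at 0.456, 0.417, 0.516 and 0.998 CPM in the null proliferating libraries, against 1.58, 1.77, 2.54 and 2.88 CPM in the intact ones. Null replicate 4 was the highest null library and still below all intact ones (log2 fold change -1.77 ± 0.34, edgeR adjusted p = 0.000807). Rtp4, a receptor-transporter protein induced by interferon, had 0.684, 0.655, 0.357 and 0.324 CPM in the null proliferating libraries, against 1.48, 1.44, 1.77 and 2.12 CPM in the intact ones, without overlap (-1.70 ± 0.32, edgeR adjusted p = 0.000709). Oasl2, of the oligoadenylate synthetase family, rested on 23 counts in null and 63 in intact proliferating cells and was called lower (-1.78 ± 0.54, edgeR adjusted p = 0.0155). Cmpk2, a nucleotide kinase that lies beside Rsad2 on chromosome 12, was at 4.57 ± 0.661 CPM over the null and 5.96 ± 0.463 CPM over the intact proliferating libraries and was not called. Bst2, Ifi35, Ifi27, Ifitm2 and Mx2 were not called either, with Ifi35 at 41 counts in null and 39 in intact cells. Mx1, an antiviral GTPase gene that is annotated as a transcribed pseudogene, had 6 counts in null and 7 in intact proliferating cells, and Xaf1 had 4 and 18.

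Of the class I genes, H2-D1 alone was called in proliferating cells. It had 11.1, 12.3, 11.6 and 7.93 CPM in the null libraries, against 22.5, 18.2, 19.4 and 17.2 CPM in the intact ones, and the groups did not overlap (log2 fold change -0.77 ± 0.15, edgeR adjusted p = 0.000896). H2-K1 stood at 46.2 ± 3.33 CPM over the null and 47.4 ± 3.04 CPM over the intact proliferating libraries, and B2m at 91.2 ± 7.94 and 80.2 ± 8.54 CPM. Tap1 was at 7.21 ± 3.98 and 7.86 ± 1.46 CPM, Tap2 at 1.98 ± 1.38 and 3.46 ± 0.202 CPM, and the immunoproteasome gene Psmb8 at 0.375 ± 0.17 and 0.369 ± 0.15 CPM in the same order. Psmb9 had 43 counts in null and 15 in intact proliferating cells and was not tested. The class I heavy chains are close paralogs, so reads may have been split among them, and the same holds within the Ifit, Ifitm and Gbp families.

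Astrocyte markers (7 genes) summed to 1420 to 1990 CPM in null and 999 to 1590 CPM in intact proliferating libraries, those of the oligodendrocyte lineage (8 genes) to 1650 to 2180 and 2930 to 3360 CPM, and those of neurons (7 genes) to 939 to 1150 and 993 to 1060 CPM. Fibroblast and mural markers (7 genes) summed to 4.99 to 6.43 and 7.81 to 13 CPM, and cycling genes (6 genes) to 1590 to 1840 and 2200 to 2400 CPM. In null cells 6 oligodendrocyte lineage, 3 neuron, 3 fibroblast and mural and 2 cycling genes were called lower, and 0 of these lists higher. Astrocyte markers had 2 called higher and 0 lower, progenitor markers 2 and 1, and the 2 tested microglia and macrophage markers 1 and 0. The part of these cells and of the cell cycle was not tested.

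One library bears on these counts. Null proliferating replicate 4 averaged 2.3 over the 31 genes on the log2 scale of scaled CPM, against 1.87 to 1.89 in the other 3 null proliferating libraries and 2.14 to 2.26 in the intact ones. Without it, 11 genes were called lower and 3 higher, against 18.1% and 17.5% of all genes in that fit, so the lower genes were then above their share. The 5 added were Tap2, one chain of the peptide transporter (log2 fold change -1.33, edgeR adjusted p = 0.000841), Parp14 (-1.98, edgeR adjusted p = 0.006), Ifi27 (-1.25, edgeR adjusted p = 0.00867), Ifitm2 (-0.76, edgeR adjusted p = 0.0121) and Nlrc5 (-2.07, edgeR adjusted p = 0.0405). With a stricter count filter 3 were called lower (Ifih1, Trim25 and H2-D1), since Oasl2, Rsad2 and Rtp4 no longer entered the test.

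**Figure D3:**
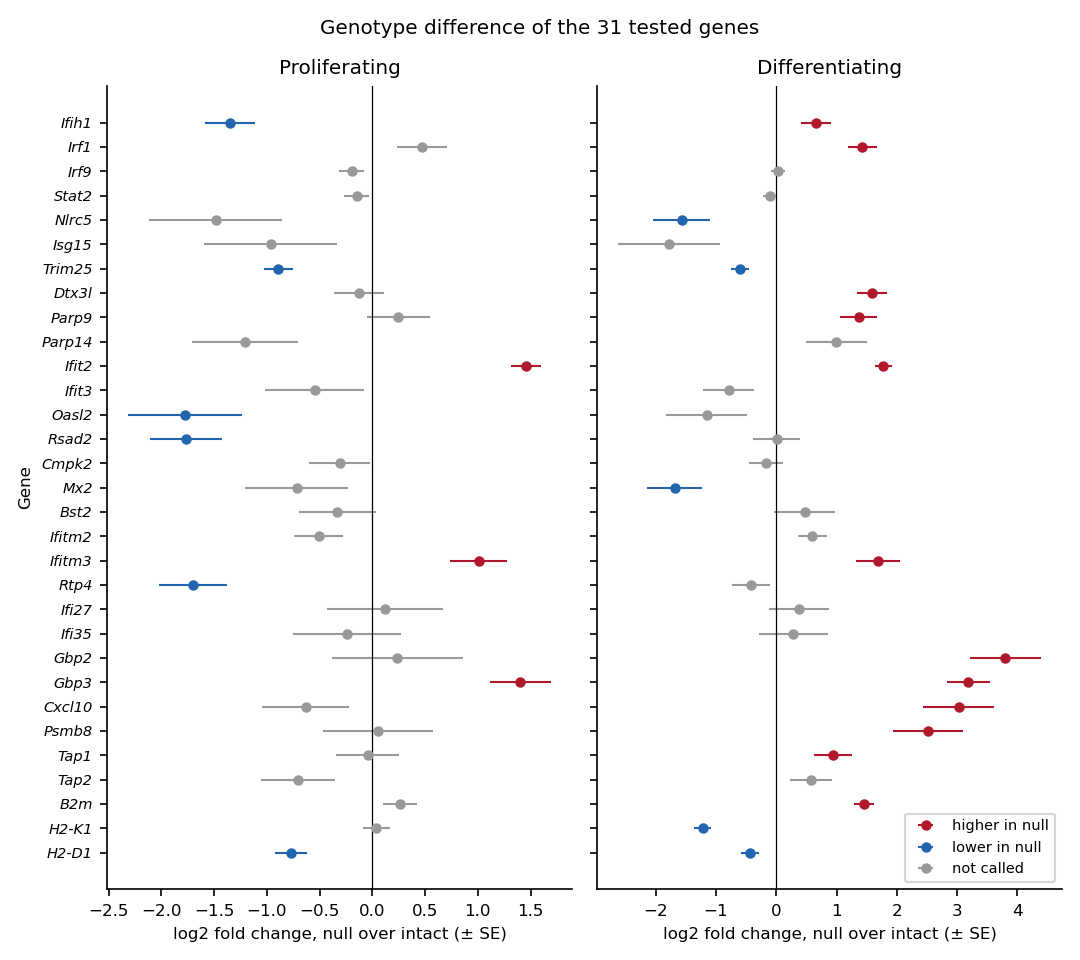
Log2 fold change of null over intact cells (x axis) with its SE (bars) for the 31 tested genes (y axis), in proliferating (left) and differentiating cells (right), with red points called higher in null, blue lower and grey not called. The 2 panels have different x scales, and the largest values are those of Gbp2, Gbp3, Cxcl10 and Psmb8 on the right.

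In differentiating cells the balance of calls was different: 12 of the 31 genes were called higher in null cells and 5 lower. Among all genes tested, 24.3% were called higher and 22% lower in this comparison, so the first count is above its share and the second below it. The median log2 fold change was 0.47 over the 31 genes and 0.04 over all genes. With library size scaling, 39.4% of all calls were higher in place of 52.5%, and 11 of the 31 genes were called higher and 5 lower. The 12 were Ifih1, Irf1, Dtx3l, Parp9, Ifit2, Ifitm3, Gbp2, Gbp3, Cxcl10, Psmb8, Tap1 and B2m, and the 5 were Nlrc5, Trim25, Mx2, H2-K1 and H2-D1.

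Gbp2 had the largest fold change, at 18.4, 28.5, 57.4 and 32.7 CPM in the null differentiating libraries, against 0.786, 2.67, 3.68 and 3.51 CPM in the intact ones. The lowest null library was well above the highest intact one (log2 fold change 3.80 ± 0.59, edgeR adjusted p = 0.000105). Gbp3 followed with 2.28, 3.79, 7.02 and 3.58 CPM in the null differentiating libraries, against 0.262, 0.678, 0.586 and 0.475 CPM in the intact ones, again without overlap (3.19 ± 0.36, edgeR adjusted p = 6.32e-06). Both carry the response element core close upstream of the start in the stretches shown, as does Trim25, which was called lower in null cells. Whether the core has a part in these differences was not tested. The 2 genes are neighbours on chromosome 3 in the cluster of guanylate-binding proteins.

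Cxcl10 encodes a chemokine that draws T cells. It had 0.911, 0.485, 0.439 and 0.721 CPM in the null differentiating libraries, against 0.0874, 0.159, 0 and 0.0633 CPM in the intact ones. All null libraries lay above all intact ones, which held 9 counts together, against 88 in the null group (log2 fold change 3.03 ± 0.59, edgeR adjusted p = 0.00054).

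Ifit2 had 22.9, 22.3, 23.8 and 23.6 CPM in the null differentiating libraries, against 7.25, 6.86, 8.33 and 6.46 CPM in the intact ones. The spread within each group was small beside the gap between them (log2 fold change 1.77 ± 0.14, edgeR adjusted p = 2.98e-07). As in proliferating cells it was 96.7 to 98.6% of the Ifit1, Ifit2 and Ifit3 counts in null and 85.0 to 95.7% in intact libraries, and Ifit3 was not called. Ifit1 had 12 counts in null and 6 in intact differentiating cells. Ifitm3 was at 0.742 ± 0.173 CPM over the null and 0.240 ± 0.0533 CPM over the intact differentiating libraries (1.69 ± 0.37, edgeR adjusted p = 0.0015).

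The interferon-induced transcription factor Irf1 had 13.7, 11.8, 20 and 22.3 CPM in the null differentiating libraries, against 3.49, 7.61, 6.86 and 9.02 CPM in the intact ones. No intact library reached the lowest null one (log2 fold change 1.43 ± 0.24, edgeR adjusted p = 0.000186). Irf9 and Stat2 were at 16.8 ± 0.797 and 32.5 ± 3.61 CPM in null and 17.5 ± 2.71 and 36.9 ± 5.74 CPM in intact differentiating cells, and neither was called. Ifih1 was called higher (0.780 ± 0.172 CPM over the null and 0.531 ± 0.136 CPM over the intact differentiating libraries, log2 fold change 0.66 ± 0.25, edgeR adjusted p = 0.0403), the opposite side from proliferating cells. This call was lost under both other scalings, both other count filters, DESeq2 (adjusted p = 0.0907), the fit to only these 2 groups, and on leaving out any 1 of 6 libraries, namely replicate 3 of each of the 4 groups, null differentiating replicate 4 and intact differentiating replicate 1 (edgeR adjusted p = 0.0509 to 0.129).

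Dtx3l and Parp9 encode partners, a ubiquitin ligase and an ADP-ribose binding protein, and are neighbours on chromosome 16. Dtx3l had 2.56, 2.76, 5.62 and 4.36 CPM in the null differentiating libraries, against 1.28, 1.44, 1.13 and 1.55 CPM in the intact ones, with no overlap (log2 fold change 1.59 ± 0.25, edgeR adjusted p = 0.000116). Parp9 was higher as well, at 4.90 ± 2.29 CPM over the null and 2.04 ± 0.549 CPM over the intact differentiating libraries (1.37 ± 0.30, edgeR adjusted p = 0.00186). In the GENCODE annotation, exons of the pair overlap on opposite strands by 458 bases, which is 8.0% of Dtx3l and 9.4% of Parp9. No source used here says whether the counting used strand, so reads there may belong to either gene. Trim25 was lower in null cells again (0.973 ± 0.0824 CPM over the null and 1.58 ± 0.215 CPM over the intact differentiating libraries, -0.60 ± 0.15, edgeR adjusted p = 0.00376).

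The genes of class I presentation moved in both directions. H2-K1 (chr17:33996012-34000619) and H2-D1 (chr17:35263094-35267497) flank, in GRCm38.p6, a stretch that holds Psmb9, Tap1, Psmb8 and Tap2 in that order, while B2m lies on another chromosome (chr2:122147687-122153082). B2m had 64.9, 83.1, 82.5 and 80.8 CPM in the null differentiating libraries, against 21.3, 36.4, 24.7 and 38.4 CPM in the intact ones. The groups were far apart, with the null libraries higher (log2 fold change 1.46 ± 0.16, edgeR adjusted p = 6.79e-06). H2-K1 went the other way, with 5.68, 4.64, 6.54 and 6.75 CPM in the null differentiating libraries, against 11.9, 17.6, 12.5 and 16.8 CPM in the intact ones. Each null library was below each intact one (-1.22 ± 0.13, edgeR adjusted p = 5.23e-06). Counts of B2m per count of H2-K1 and H2-D1 together were 4.34 to 5.61 in null and 0.715 to 1.31 in intact differentiating libraries, beside 1.36 to 2.0 in null and 0.947 to 1.43 in intact proliferating libraries.

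H2-D1 was at 10.4 ± 1.03 CPM over the null and 14.8 ± 2.34 CPM over the intact differentiating libraries and was called lower (log2 fold change -0.43 ± 0.15, edgeR adjusted p = 0.0267). Leaving out any 1 of 5 libraries, null replicates 1, 2 and 4 and intact replicates 1 and 3, ended that call (edgeR adjusted p = 0.054 to 0.0903). Psmb8, a catalytic subunit of the immunoproteasome, had 0.561, 0.182, 0.773 and 0.433 CPM in the null differentiating libraries, against 0.0291, 0.0399, 0.167 and 0.127 CPM in the intact ones. The groups did not overlap, though they rest on 74 and 10 counts (2.51 ± 0.59, edgeR adjusted p = 0.00219). In the GENCODE annotation, which may not be the one used for counting, 14.7% of the exon bases of Psmb8 are shared with a gene on the other strand. Psmb9, its partner subunit, was too low to test, with 41 counts in null and 16 in intact differentiating cells. Tap1, a chain of the peptide transporter, was at 3.24 ± 0.702 CPM over the null and 1.79 ± 0.342 CPM over the intact differentiating libraries (0.95 ± 0.31, edgeR adjusted p = 0.0226). Without null replicate 4, intact replicate 2 or intact replicate 4 it was not called (edgeR adjusted p = 0.0619, 0.0528 and 0.0586), and Tap2, at 3.07 ± 0.528 CPM over the null and 2.22 ± 0.684 CPM over the intact libraries, was not called in the full set.

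Nlrc5, the activator of these class I genes, was lower in null cells, at 0.701, 0.606, 1.69 and 1.79 CPM in the null differentiating libraries, against 1.28, 3.67, 4.81 and 5.70 CPM in the intact ones. Intact replicate 1 fell among the null libraries (log2 fold change -1.57 ± 0.47, edgeR adjusted p = 0.0121). Mx2, of a family of dynamin-like antiviral GTPases and annotated as a transcribed pseudogene in the reference strain, was also lower, at 2.89 ± 0.278 CPM over the null and 9.97 ± 3.92 CPM over the intact differentiating libraries (-1.68 ± 0.46, edgeR adjusted p = 0.00732). Xaf1, an interferon-induced regulator of apoptosis, was too low to test. It had no count over the 4 null differentiating libraries and 9 over the intact ones. With a floor of 3 counts over the null group this is a 3.76-fold difference, which takes no account of counting error in the 9. Mx1 had 8 counts in null and 25 in intact differentiating cells, Usp18 6 and 12, Irf7 11 and 21, and Isg15 7 and 21. Rsad2, Rtp4 and Bst2 were not called here, at 0.299 ± 0.0849, 0.55 ± 0.18 and 0.279 ± 0.165 CPM in null and 0.323 ± 0.113, 0.798 ± 0.148 and 0.214 ± 0.0881 CPM in intact differentiating cells.

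Markers of other cells also differed between these groups. Astrocyte markers (7 genes) summed to 3510 to 5470 CPM in null and 1370 to 2290 CPM in intact differentiating libraries, with 4 of 7 called higher in null cells. Those of fibroblasts and mural cells (7 genes) summed to 15.6 to 29.1 CPM in null and 56 to 191 CPM in intact libraries, those of the oligodendrocyte lineage (8 genes) to 1890 to 2340 and 3640 to 7440 CPM, and those of neurons to 2080 to 2500 and 2000 to 5390 CPM. Called lower in null cells were 5 fibroblast and mural, 5 oligodendrocyte lineage and 3 neuron markers, and called higher were 0, 0 and 1. Genes of cycling cells (6 genes) summed to 338 to 402 CPM in null and 169 to 255 CPM in intact differentiating libraries, with 5 of 6 called higher in null cells, and the 8 progenitor markers given above had 5 called higher and 0 lower. The part of all these cells and of the cell cycle in the genotype differences above was not tested. Microglia and macrophage markers were at 2.54 to 2.94 CPM in null and 2.23 to 3.10 CPM in intact differentiating libraries, and of the 2 tested 0 were called.

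**Figure D4:**
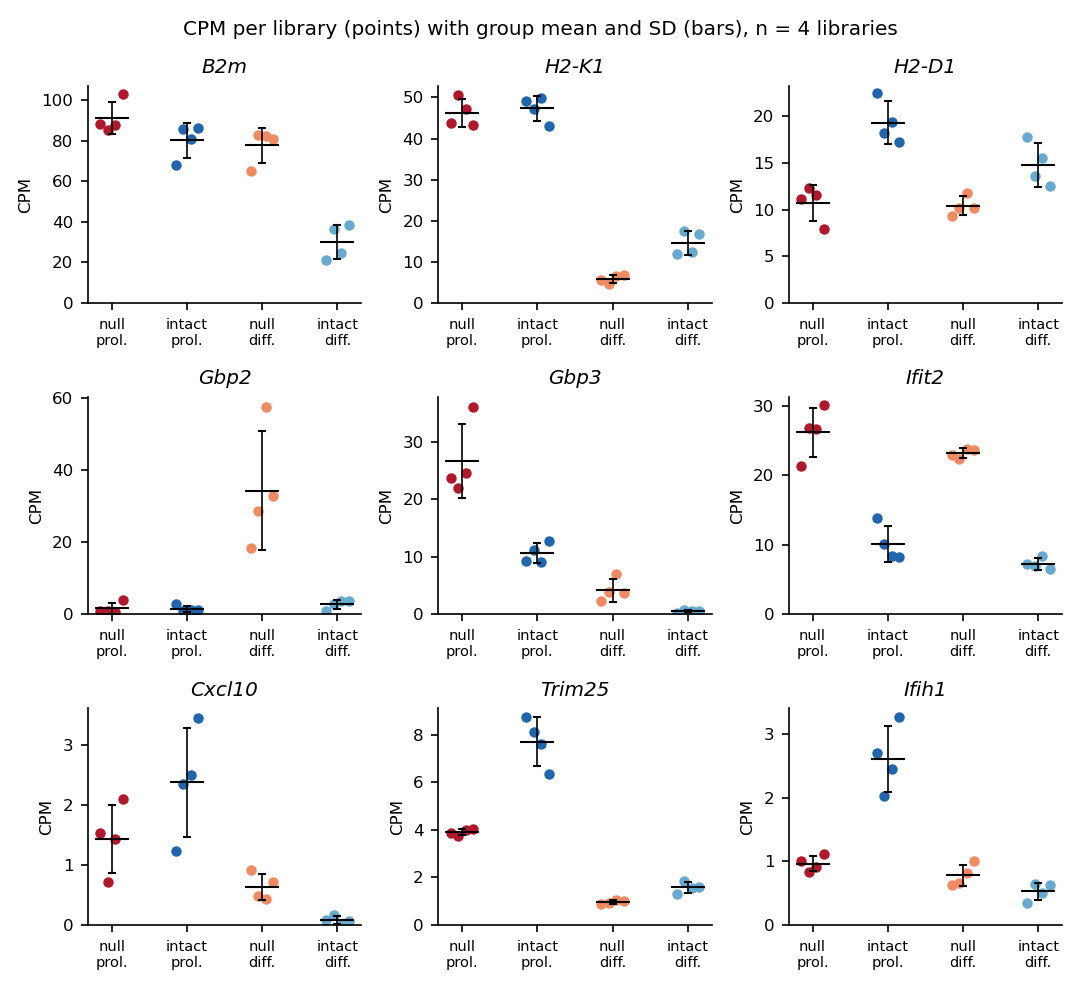
CPM in each library (points) of 9 genes, 1 per panel, by group (x axis; prol., proliferating; diff., differentiating), with the group mean and SD (bars, n = 4). B2m is lowest in the intact differentiating group, H2-K1 is lowest in the null differentiating group, and Gbp2 is highest in the null differentiating group.

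Most of these genes were lower in differentiating than in proliferating intact cells, and fewer of them were in null cells. Stage, laminin and medium changed together, so their parts in these changes cannot be told apart. In null cells, 5 of the 31 genes were called higher after differentiation and 10 lower, against 34.6% and 34.4% of all genes tested, so neither count is above its share. In intact cells, 3 were called higher and 21 lower, against 36.7% and 35.3% of all genes, so the lower genes are above their share and the higher genes below it. The median log2 fold change over the 31 genes was -0.28 in null and -1.49 in intact cells, with 0.02 over all genes in both. The 6 genes of cycling cells were lower after differentiation in both genotypes, all 6 called in each: they summed to 338 to 402 CPM in null differentiating and 1590 to 1840 CPM in null proliferating libraries, and to 169 to 255 CPM in intact differentiating and 2200 to 2400 CPM in intact proliferating libraries.

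Membrane effectors were among the genes that fell furthest. Ifitm3, described above library by library for proliferating cells, had a log2 fold change of -4.27 ± 0.31 (edgeR adjusted p = 1.71e-08) upon differentiation in null and -4.96 ± 0.35 (edgeR adjusted p = 1.18e-08) in intact cells. Bst2 encodes tetherin, which holds budding viruses at the cell surface. It had 0.245, 0.0606, 0.376 and 0.433 CPM in null differentiating libraries, against 4.36, 3.34, 2.82 and 3.42 CPM in null proliferating ones (-3.66 ± 0.44, edgeR adjusted p = 2.67e-06). In intact cells it had 0.320, 0.159, 0.251 and 0.127 CPM in differentiating libraries, against 2.45, 6.31, 5.18 and 4.47 CPM in proliferating ones (-4.46 ± 0.46, edgeR adjusted p = 6.87e-07). Differentiating and proliferating libraries did not overlap in either genotype.

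Trim25 fell by 2.06 ± 0.15 in null and 2.36 ± 0.14 in intact cells on the log2 scale (edgeR adjusted p = 1.26e-08 and 2.3e-09). H2-K1 fell by 3.03 ± 0.14 in null and 1.76 ± 0.13 in intact cells (edgeR adjusted p = 2.24e-10 and 2.18e-08), and in null cells it had the lowest adjusted p of the 31 genes. Gbp3 fell by 2.72 ± 0.30 in null and 4.50 ± 0.36 in intact cells (edgeR adjusted p = 1.38e-06 and 4.92e-08). Ifitm2, at 3.51 ± 0.604 CPM in null differentiating, 11.6 ± 3.87 CPM in null proliferating, 2.46 ± 0.5 CPM in intact differentiating and 17.4 ± 3.66 CPM in intact proliferating cells, fell in both genotypes too. So did Isg15, Rsad2, Cxcl10 and Tap1, with log2 fold changes of -2.29, -1.06, -1.28 and -1.22 in null and -1.48, -2.83, -4.93 and -2.21 in intact cells.

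Called lower in intact cells but not in null cells were 11 genes: Ifih1, Dtx3l, Parp9, Parp14, Ifit2, Oasl2, Rtp4, Ifi35, Psmb8, B2m and H2-D1. Among all genes tested, 7.59% were called in this way. For 5 of these the difference between the genotypes was itself called, as given further on. Their log2 fold changes in intact cells ran from -2.38 (Ifih1) to -0.45 (H2-D1). Calls that hung on single libraries were Isg15 in intact cells (lost without any 1 of 7 libraries, edgeR adjusted p = 0.0563 to 0.128, and with 2 other scalings, no count filter or DESeq2), Ifi35 in intact cells (lost without either library of replicate 3, edgeR adjusted p = 0.0629 and 0.0612), Cxcl10 in null cells (lost without proliferating replicate 4 or differentiating replicate 3, edgeR adjusted p = 0.0561 and 0.0522) and Rsad2 in null cells (lost without replicate 4 of either stage, edgeR adjusted p = 0.108 and 0.0505).

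The genes that went up were few. Nlrc5 rose by a log2 fold change of 2.78 ± 0.58 in null and 2.87 ± 0.52 in intact cells (edgeR adjusted p = 0.000512 and 0.000159), and Irf9 by 1.02 ± 0.12 and 0.79 ± 0.12 (edgeR adjusted p = 2.73e-06 and 3.44e-05). Mx2 rose in intact cells (2.02 ± 0.47, edgeR adjusted p = 0.00132) and had a value of 1.05 ± 0.48 in null cells (edgeR adjusted p = 0.0608). Gbp2 rose in null cells, where the differentiating libraries given above stood against 0.944, 0.715, 0.675 and 3.88 CPM in the proliferating ones (4.33 ± 0.61, edgeR adjusted p = 1.52e-05). Without null proliferating replicate 4, the highest of these, the log2 fold change was 5.38. In intact cells Gbp2 had 2.71, 0.963, 1.05 and 1.19 CPM in proliferating libraries, and its change of 0.77 ± 0.61 was not called. Irf1 and the interferon-induced gene Ifi27 were called higher in null cells (0.64 ± 0.23 and 1.42 ± 0.52, edgeR adjusted p = 0.0235 and 0.0227), and each call was lost without any 1 of 4 libraries. For Irf1 these were replicates 3 and 4 of both null groups (edgeR adjusted p = 0.0514 to 0.0877), and for Ifi27 null proliferating replicates 1, 2 and 3 and null differentiating replicate 2 (edgeR adjusted p = 0.0547 to 0.068). Without null proliferating replicate 4, Ifi27 instead stood at 2.80 (edgeR adjusted p = 2.86e-06).

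The difference between these responses was tested directly, as the null response minus the intact response. Of the 31 genes, 10 were called higher and 1 lower, against 12.7% and 9.93% of all genes tested, the first above its share and the second below. The median was 0.80 over the 31 genes and 0.04 over all genes. This test uses the same libraries as the 4 comparisons above, so it is not a further set of measurements. Of the 6 genes of cycling cells, 5 were also called higher and 0 lower, with a median of 0.96, and their part in the result was not tested.

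Cxcl10 had the largest difference in the full set, 3.66 ± 0.72 on the log2 scale (edgeR adjusted p = 0.00219): a fall of 1.28 in null and of 4.93 in intact cells. Gbp2 came next with 3.56 ± 0.84 (edgeR adjusted p = 0.00725). Without null proliferating replicate 4 that order turned, with 4.61 for Gbp2 and 3.89 for Cxcl10. Then followed Psmb8 with 2.46 ± 0.80 (edgeR adjusted p = 0.0335), Parp14, an ADP-ribosyltransferase, with 2.20 ± 0.71 (edgeR adjusted p = 0.0363), and Ifih1 with 2.0 ± 0.34 (edgeR adjusted p = 0.000921). Parp14 averaged 0.745 ± 0.348 CPM in null differentiating, 0.505 ± 0.399 CPM in null proliferating, 0.412 ± 0.205 CPM in intact differentiating and 1.27 ± 0.337 CPM in intact proliferating cells. For Ifih1 the null libraries were lower than the intact ones while proliferating, and its log2 fold change upon differentiation was -0.37 ± 0.24 in null cells, which was not called (edgeR adjusted p = 0.175), and -2.38 ± 0.25 in intact cells. Gbp3, Rsad2 and Dtx3l differed by 1.78 ± 0.46, 1.77 ± 0.51 and 1.72 ± 0.35 (edgeR adjusted p = 0.0116, 0.0214 and 0.00279).

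B2m differed by 1.20 ± 0.23 (edgeR adjusted p = 0.00194): its level changed by -0.29 ± 0.16 in null cells, which was not called (edgeR adjusted p = 0.12), and by -1.49 ± 0.17 in intact cells. H2-K1 was the 1 gene called on the other side, with -1.26 ± 0.18 (edgeR adjusted p = 0.000331), since it fell further in null cells. H2-K1 and the light chain B2m thus had differences of opposite sign. The other heavy chain, H2-D1, had a difference of 0.34 ± 0.21 and was not called (edgeR adjusted p = 0.26). Ifitm2 made the last of the 10, with 1.11 ± 0.34 (edgeR adjusted p = 0.0276). In the GENCODE annotation, 40.9% of the exon bases of Ifitm2 are shared with another gene on the same strand. The annotation used for counting is not given, so whether this touched the counts of Ifitm2 is not known. Several of these calls were close to the threshold: Parp14, Ifitm2 and Psmb8 lost it without any 1 of 10, 9 and 8 libraries (edgeR adjusted p = 0.0503 to 0.0882, 0.0516 to 0.0569 and 0.0503 to 0.0844) and Rsad2 without null differentiating replicate 3 (edgeR adjusted p = 0.0577). Without that library 6 genes were called higher, against 10.9% of all genes in that fit. Without null proliferating replicate 4, 13 were called higher, against 13.9% of all genes, with Tap1, Tap2 and Ifi27 added (1.46, 1.91 and 1.63, edgeR adjusted p = 0.00413, 0.0011 and 0.0107).

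**Figure D5:**
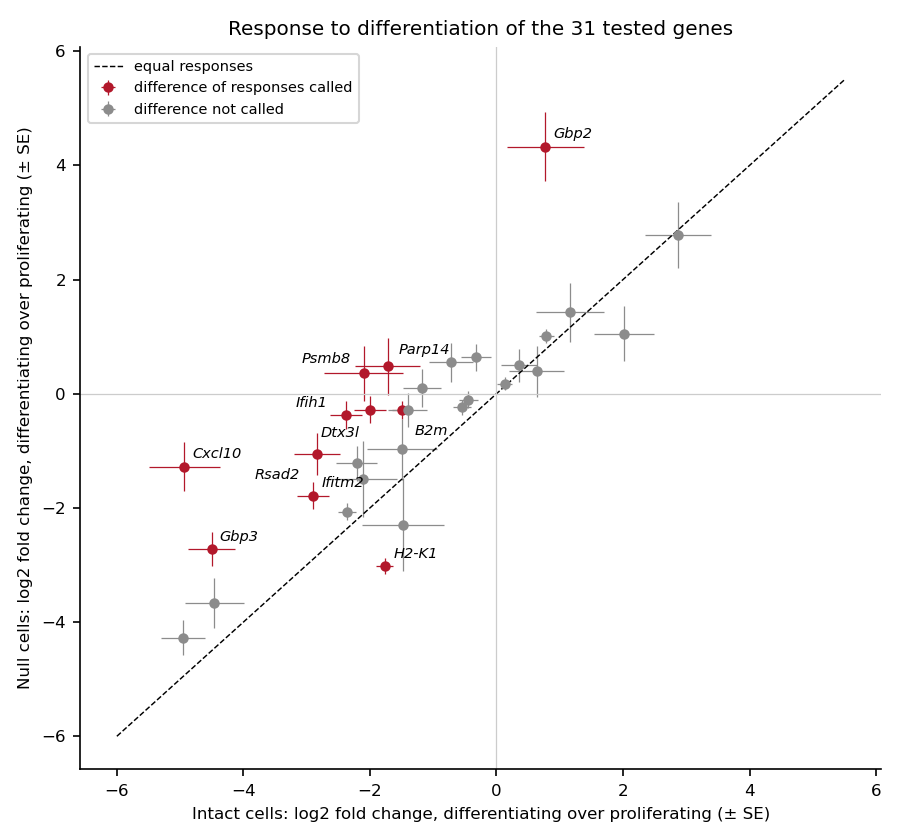
Log2 fold change of differentiating over proliferating cells in intact (x axis) and null cells (y axis), each with its SE (bars), for the 31 tested genes, with red points and names where the difference of the responses was called. Of the red points 10 lie above the dashed line of equal responses and H2-K1 lies below it.

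The genes upstream of the 38 were examined as lists, whose counts stand against the shares of all genes given above: 19% higher and 19.7% lower in null proliferating cells, and 24.3% and 22% in null differentiating cells. None of 10 interferon genes (Ifnb1, Ifng, Ifnk, Ifne, Ifna1, Ifna2, Ifna4, Ifna5, Ifnl2 and Ifnl3) had a count in any of the 16 libraries, which allows up to 0.0208 to 0.0362 CPM per group, counting error only. Receptors and signalling genes, in contrast, were well measured, and 10 of 11 were tested. In proliferating cells 4 were higher and 1 lower in null cells, and in differentiating cells 5 were higher and 0 lower. Ifnar1, a chain of the type I interferon receptor, was at 148 ± 9.34 CPM over the null and 108 ± 1.94 CPM over the intact proliferating libraries (log2 fold change 0.52 ± 0.06, edgeR adjusted p = 5.64e-06), and at 122 ± 4.05 and 100 ± 1.48 CPM in null and intact differentiating cells (0.37 ± 0.05, edgeR adjusted p = 7.33e-05).

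The kinases Jak1 and Jak2 were higher in null cells by 0.48 ± 0.07 and 0.50 ± 0.12 while proliferating and by 0.59 ± 0.07 and 0.65 ± 0.12 while differentiating (edgeR adjusted p = 8.85e-05, 0.00317, 9.46e-06 and 0.000362). Il10rb, a receptor chain that lambda interferons share with interleukin 10, was higher by 0.92 ± 0.21 and 0.81 ± 0.22 (edgeR adjusted p = 0.00287 and 0.00802). Stat3 was higher in null differentiating cells (0.89 ± 0.24, edgeR adjusted p = 0.00627). Ifnar2, the second chain of the type I receptor, was called lower in null proliferating cells (-0.21 ± 0.08, edgeR adjusted p = 0.0359), a call lost without any 1 of 6 libraries, null replicates 2, 3 and 4 and intact replicates 1, 2 and 4 (edgeR adjusted p = 0.0532 to 0.104).

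Sensors of nucleic acid and their adaptors were tested in 13 of 15 cases. In null proliferating cells 2 were higher and 1 lower, and in null differentiating cells 5 were higher and 0 lower. Tlr3, the sensor of double-stranded RNA in endosomes, had 14.3, 20, 19.0 and 41.4 CPM in null and 8.78, 5.83, 6.23 and 6.33 CPM in intact proliferating libraries, and 9.60, 11.8, 17.6 and 15.6 CPM in null and 1.89, 2.51, 1.80 and 2.15 CPM in intact differentiating libraries. The genotypes did not overlap at either stage (log2 fold changes 1.88 ± 0.29 and 2.80 ± 0.30, edgeR adjusted p = 0.000132 and 4.88e-06). Eif2ak2, which encodes the kinase PKR, was higher by 1.22 ± 0.17 and 1.73 ± 0.17 (edgeR adjusted p = 5.79e-05 and 2.08e-06). Sting1, the adaptor of cytosolic DNA sensing, was higher in null differentiating cells (0.962 ± 0.0438 CPM in null and 0.320 ± 0.133 CPM in intact cells, 1.68 ± 0.27, edgeR adjusted p = 0.000146). It fell with differentiation, with log2 fold changes of -4.02 ± 0.23 in null and -5.5 ± 0.27 in intact cells (edgeR adjusted p = 1.92e-09 and 1.73e-10), and Cgas, the DNA sensor upstream of it, fell likewise (-2.22 ± 0.25 and -3.10 ± 0.27, edgeR adjusted p = 1.71e-06 and 1.02e-07). Of the 13 sensors tested, 3 rose and 4 fell with differentiation in null cells (34.6% and 34.4% of all genes did), and 1 rose and 9 fell in intact cells (36.7% and 35.3%).

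Of 30 further interferon-stimulated genes 16 were tested. In proliferating cells 3 were higher and 5 lower in null cells, and in differentiating cells 7 were higher and 3 lower. Helz2, Trim21 and Ddx60 had the lowest adjusted p while proliferating, all lower in null cells (log2 fold changes -2.18 ± 0.33, -2.46 ± 0.44 and -2.98 ± 0.57, edgeR adjusted p = 0.000106, 0.000507 and 0.000665). While differentiating these were Irgm1, Tor3a and Igtp, all higher (2.95 ± 0.41, 1.31 ± 0.20 and 1.80 ± 0.38, edgeR adjusted p = 4.11e-05, 9.98e-05 and 0.00114). Irgm1 and Igtp encode immunity-related GTPases, which act with the guanylate-binding proteins against intracellular pathogens. Irgm1 had 12.4, 19.3, 36.9 and 27.9 CPM in the null differentiating libraries, against 1.14, 5.22, 2.43 and 4.65 CPM in the intact ones, without overlap, and its response differed between genotypes by 2.52 ± 0.55 (edgeR adjusted p = 0.0048). Of this list, 3 rose and 4 fell with differentiation in null cells, and 1 rose and 10 fell in intact cells, against the same shares of all genes. The difference of responses was called higher for 5 and lower for 0, against 12.7% and 9.93% of all genes.

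Of 8 negative regulators of the pathway, 0 were higher and 1 lower in null proliferating cells, and 3 were higher and 1 lower in null differentiating cells. Socs3, a feedback inhibitor of Janus kinases, was at 16.9 ± 5.17 CPM over the null and 7.66 ± 0.761 CPM over the intact differentiating libraries (log2 fold change 1.23 ± 0.21, edgeR adjusted p = 0.000206). Of 17 further class I presentation genes 15 were tested, with 5 higher and 3 lower in null proliferating and 3 higher and 4 lower in null differentiating cells. Erap1, which trims peptides in the endoplasmic reticulum, had 47.9, 46.2, 43.9 and 47.2 CPM in null and 13.3, 13, 11.2 and 11.0 CPM in intact proliferating libraries, and 34.4, 39.1, 51.9 and 52.8 CPM in null and 9.06, 13, 11.9 and 13.3 CPM in intact differentiating libraries. All null libraries were above all intact ones at both stages, by 2.01 ± 0.14 in each (edgeR adjusted p = 1.55e-07 and 1.03e-07). The heavy chain H2-Q7 was lower in null cells, by -2.57 ± 0.30 while proliferating and -1.20 ± 0.39 while differentiating (edgeR adjusted p = 1.14e-05 and 0.0171, the second lost without intact differentiating replicate 1 or 3). Calr, the chaperone calreticulin, which helps to load class I molecules, was lower in null differentiating cells (-0.73 ± 0.11, edgeR adjusted p = 0.000109). Of 7 class II genes 3 were tested, and H2-Ab1 was called lower in null cells at both stages (-1.94 ± 0.61 and -1.57 ± 0.55, edgeR adjusted p = 0.0184 and 0.0286), calls that were lost without replicate 1 of either genotype while proliferating (edgeR adjusted p = 0.0553 and 0.0691), and without null replicate 1, 3 or 4 or intact replicate 3 or 4 while differentiating (edgeR adjusted p = 0.0614 to 0.0783).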

How the data were processed

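Poly(A) RNA of 16 libraries (4 foetal isolates in each of 4 groups) was sequenced as 75-base paired ends with TruSeq libraries. Each deposited file holds whole-number read counts per Entrez gene and a gene length made by the authors. bcl2fastq, featureCounts and mm10 are named in the submitters' processing notes; aligner, annotation and strand setting were not given in the sources used here. Gene length was used only for levels per kb. A combined table was not used.

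Of 27179 identifiers, 25275 matched a RefSeq symbol of GRCm38.p6. Shared exon bases were taken from the GENCODE annotation, which may differ from the one used for counting. Library totals of 16.8 to 47.9 M counts set the precision; intervals and floors (3 counts over a group) cover counting error only. Genes passing filterByExpr (minimum count 10) numbered 15177, among them 31 of the 38. edgeR 4.0.16 in R 4.3.3 fitted 1 mean per group over the 16 libraries, with trimmed-mean scaling, and its quasi-likelihood test with Benjamini-Hochberg adjustment over all 15177 genes called those under 0.05. The 5 comparisons were null against intact at each stage, differentiating against proliferating in each genotype, and the difference of those responses, which share libraries. CPM are plain shares of the library; fold changes come from the scaled fit. SE is the fold change over the square root of the F statistic. The test was run on simulated counts in which few genes changed. It was not checked there for changes as broad as those in these data.

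The members and lists were chosen with earlier results of these data known. By rule, full values are given for up to 8 called genes with the lowest adjusted p per comparison and for genes of a role group the text turns on; the other lists name up to 3 called genes with the lowest adjusted p and any ligand, receptor, JAK or STAT gene. Any other gene was chosen after its values were seen. Alternatives were other scalings, count filters, DESeq2 1.42.0, a test against 1.5-fold, 2-group fits, replicate blocks and leaving out each library. 1 gene of the receptor and signalling list is counted in that list but not reported here.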

Additional observations from a re-analysis of the deposited data

Results flagged for a closer look

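Among 124 groups of 4 libraries (31 genes in 4 groups), 13 had 1 library far from the other 3 by Dixon's test at the 95% level, which chance gives in about 1 in 20 groups. Null proliferating replicate 4 accounted for 7 of these. It had 0.998 CPM of Rsad2 against 0.417 to 0.516 in the other 3 libraries, 2.05 of Ifi27 against 0.195 to 0.357, 3.88 of Gbp2 against 0.675 to 0.944, 13.2 of Tap1 against 4.95 to 5.4, 4.04 of Tap2 against 1.15 to 1.37 and 103.0 of B2m against 85.5 to 88.4. Its Stat2 level was the lowest instead, at 23.8 CPM against 28.7 to 29.

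Intact proliferating replicate 1 stood apart for Nlrc5 (0.868 CPM against 0.354 to 0.409 in the other 3) and Gbp2 (2.71 against 0.963 to 1.19). Null differentiating replicate 1 was low in Rtp4 (0.28 CPM against 0.635 to 0.647) and B2m (64.9 against 80.8 to 83.1). Among the intact differentiating libraries, replicate 1 had 14.6 CPM of Cmpk2 against 4.65 to 6.3, and replicate 4 had 3.2 CPM of Ifitm2 against 2.09 to 2.27.

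For 11 genes the response to differentiation differed between genotypes by the test of the difference itself (edgeR adjusted p under 0.05). On the log2 scale the null response exceeded the intact response by 3.66 for Cxcl10, 3.56 for Gbp2, 2.46 for Psmb8, 2.2 for Parp14, 2.0 for Ifih1, 1.78 for Gbp3, 1.77 for Rsad2, 1.72 for Dtx3l, 1.2 for B2m and 1.11 for Ifitm2, and the difference was -1.26 for H2-K1.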

How the results depend on the processing

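No count, median or called gene among the 38 changed direction under an alternative that was run, each gene being rerun only for the comparisons that called it. Over all genes the balance did turn: in the difference of the responses 1935 were higher and 1507 lower as reported, 1565 and 1788 with the stricter filter and 2006 and 2057 by DESeq2, and the median of null against intact differentiating cells was 0.04 as reported and -0.01 with RLE size factors. In null against intact proliferating cells, 3 genes were called lower with the stricter filter and 12 without null proliferating replicate 4 and both intact number-1 libraries (an alternative chosen after seeing the data), against 6 as reported, and 6 to 11 when 1 library was left out, 11 being without null proliferating replicate 4. Against a fold of 1.5, 2 were lower in null differentiating cells (11.1% of all genes) and 3 higher upon differentiation in null cells (17.5%). In the difference of the responses 5 were higher (2.37%). Without those 3 libraries, 9 rose upon differentiation in null and 5 in intact cells (38.7% and 38.8% of all genes). In the difference of the responses 2 were then lower (15.5%), as also without both intact number-1 libraries (13.8%). Leaving out 1 library gave 3 to 7 genes rising in null cells, and 6 to 13 higher and 1 to 2 lower in the difference. The lowest of these, 6, was without null differentiating replicate 3. Intact responses of Isg15 were not called without null proliferating replicates 2 or 3, intact proliferating replicates 2, 3 or 4 or intact differentiating replicates 2 or 3. In the difference of the responses, Parp14, Ifitm2 and Psmb8 were each lost without null proliferating replicate 1 or 3, intact proliferating replicate 3, null differentiating replicate 3 or intact differentiating replicate 2, among others. Depth limits the 12 genes under 1 CPM, whose calls rest on few counts.

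The residuals of same-numbered libraries of the 2 stages correlated at -0.0284 to 0.0331 in null cells and at 0.126, 0.123, -0.231 and 0.117 for numbers 1 to 4 in intact cells (across genotypes -0.106 to 0.0631). Since not every pair was above 0.1, the numbers were not taken as pairing. With the replicate number as a block, 10 genes were lower and 3 higher in null proliferating cells (19.0% and 18.1% of all genes), 13 higher and 5 lower in null differentiating cells (23.5% and 21.0%), 5 higher and 12 lower upon differentiation in null cells (34.5% and 34.0%), 3 and 22 in intact cells (35.9% and 35.2%), and 11 and 1 in the difference (11.8% and 8.93%). With the number within genotype as a block, Psmb8 in the difference of the responses (2.41, edgeR adjusted p = 0.0715) and Irf1 in the null response (0.60, edgeR adjusted p = 0.051) were no longer called.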
